A study of Mus musculus with 4 samples.

Results

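Ppargc1a, Ppargc1b and Pdk4 are 3 genes of oxidative fuel use, and the LSD1 peaks at their loci are described here at day 2 and day 5 of C2C12 differentiation. These mouse myoblasts exit the cell cycle and fuse into myotubes once serum is lowered. Peaks were taken if they overlapped, by at least 1 bp, a window in mm9 coordinates set around each gene, meant to take in the gene and about 20 kb or more on each side. The RefSeq model of Ppargc1a in another build, with predicted transcripts, is longer than its window, so for that gene the window may hold a part. The windows were chr5:51820000-51970000 for Ppargc1a, chr18:61435000-61585000 for Ppargc1b and chr6:5410000-5470000 for Pdk4. They held 14 of the 44039 day 2 peaks and 7 of the 17446 day 5 peaks, 21 of 61485 in all. The series has 4 libraries, an LSD1 precipitate and an input for each day, and 1 library per group. Day 2 cells, called differentiating in the labels, had spent 48 h in medium with 2% horse serum and 25 mM glucose, and day 5 cells, called differentiated, 120 h. Both came from growth medium with 10% fetal bovine serum, none carried a genetic change that the labels name, and the antibody was a polyclonal against LSD1. With single libraries there is no spread between replicates to judge a day 2 against day 5 difference by, and no test is given. The read depth behind the peaks is unknown, and input reads were not used here. All intervals below are at the 95% level and cover counting error only.

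LSD1, the product of Kdm1a, is a demethylase of histone H3 lysines that works in complexes with CoREST and histone deacetylases. Ppargc1a and Ppargc1b encode PGC-1α and PGC-1β, transcriptional coactivators that bind nuclear receptors such as the estrogen-related receptors and PPARs and raise the expression of mitochondrial and fatty acid oxidation genes. Pdk4 encodes a kinase that phosphorylates and shuts off the pyruvate dehydrogenase complex, so that muscle burns fatty acids in place of glucose, and it is a known target of the same receptors. Oxidative and slow muscle is rich in PGC-1α, while Pdk4 rises in muscle on fasting.

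Promoter sequences were found in RefSeq's table for 2 of the 3 genes, Ppargc1a and Pdk4, and are shown to let a reader see what kind of promoter each gene carries. They belong to the build GRCm38.p6, not to the mm9 of the peaks, so whether an LSD1 peak covers them was not tested, and Ppargc1a has 13 RefSeq transcripts of which the table gives 1 start. Each run holds the 250 bases before the start, read 5′ to 3′ on the minus strand, with matches to CANNTG and ACGTCA in capitals.
Ppargc1a, chr5:51567726-51567975: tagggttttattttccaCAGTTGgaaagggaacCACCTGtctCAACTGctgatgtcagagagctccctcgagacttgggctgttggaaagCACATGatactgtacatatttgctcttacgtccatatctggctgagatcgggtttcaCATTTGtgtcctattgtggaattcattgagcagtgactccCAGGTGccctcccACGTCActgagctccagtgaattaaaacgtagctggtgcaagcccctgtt
Pdk4, chr6:5496279-5496528: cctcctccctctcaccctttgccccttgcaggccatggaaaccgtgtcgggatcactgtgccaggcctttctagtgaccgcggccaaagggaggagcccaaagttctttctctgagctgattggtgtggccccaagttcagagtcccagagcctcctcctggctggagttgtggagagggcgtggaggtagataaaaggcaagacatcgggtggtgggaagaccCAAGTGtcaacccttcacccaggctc
The Ppargc1a stretch held 6 matches to the E-box CANNTG, the motif read by myogenic factors such as MyoD, and the Pdk4 stretch held 1. At least 1 E-box occurred in 66.2% of all 32851 RefSeq promoters of this length. How many promoters hold as many as 6 was not computed. The Ppargc1a stretch also held 1 match to ACGTCA, part of the cyclic AMP element read by CREB, which 6.47% of promoters carry on either strand. Pdk4 had no match to ACGTCA. The letters AGGTCA (a core read by nuclear receptors, in 14.0% of promoters) and GTAAACA (the FOXO core, in 3.17%) were in neither stretch, on either strand. CpG dinucleotides numbered 5 at Ppargc1a and 6 at Pdk4, and the median promoter had 6. The GC content was 48.0% at Ppargc1a and 58.8% at Pdk4, against a median of 52.4%. By CpG number Ppargc1a stood above 44.4% of promoters and Pdk4 above 49.6%, so both were near the middle.

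The coactivator gene Ppargc1a carried a single LSD1 site, found at both days and far from any other peak. At day 2 the site was a peak of 746 bp at 51943534 to 51944279 on chromosome 5. Its score was 117, which places it at 19737 of 44039, above 55.2% of the day 2 list. The score is the peak caller's own value, whose scale the files do not state, and it is read here only by its rank within a list. At day 5 the site was split between a peak of 342 bp at 51943625 to 51943966 (score 93.2, above 69.2% of the day 5 list) and a peak of 230 bp at 51944106 to 51944335 (score 54.5, above 16.0%). The first of these was contained in the day 2 peak. The second overlapped it over 75.7% of its own length and reached past its upper edge. Of all 13393 day 2 peaks with a day 5 partner, 11.3% met more than 1 day 5 peak, as this one did.

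In rank, the day 5 peaks of the Ppargc1a site stood on either side of its day 2 peak. The stronger day 5 peak stood 14.0 percentile points above the day 2 peak, a shift larger than in 90.8% of the 15073 overlapping pairs of the series, where the median shift was -16.6 points. The weaker day 5 peak differed from the day 2 peak by -39.2 points, a shift above that of 26.0% of pairs. These pairs were not matched by the rank of the day 2 peak, which limits how far a rank can rise. Ranks come from lists of unequal length, so they describe place in a list and show no change in occupancy.

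Around Ppargc1a the chromosome was empty of LSD1 peaks over long distances. The next day 2 peaks lay 506 kb below the site, at 51436819 to 51437513, and 313 kb above it, at 52257182 to 52257676. Neither of these flanking peaks had a day 5 partner, which 30.4% of all day 2 peaks had. In their score deciles, 23.4% (below) and 13.8% (above) of day 2 peaks had one. At day 5 the next peaks were 1493 kb below and 540 kb above. Each of those overlapped a day 2 peak, as 86.1% of all day 5 peaks did, and 68.3% and 93.0% of those in their score deciles. With peaks less than 1 kb apart joined into units, 196 of 38168 day 2 units (0.514%) had a distance to the nearer neighbour of at least 313 kb, and the median distance was 8.07 kb. At day 5, 155 of 15182 units (1.02%) were as isolated as this site. The window and 250 kb to each side held this site alone at both days, and 500 kb to each side added 4 day 2 peaks and no day 5 peak. The coding neighbours in RefSeq's gene order are Adgra3 and Dhx15. As the RefSeq model of Ppargc1a is longer than the window, part of this empty stretch may belong to the gene.

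The second coactivator gene, Ppargc1b, had the most LSD1 peaks of the 3 genes, and most of its day 2 peaks had no partner at day 5. Its window held 12 day 2 peaks and 4 day 5 peaks, 3 times as many at day 2, where the whole lists differed 2.52 times. Peaks covered 7955 bp of the window at day 2 and 1092 bp at day 5, which is 7.28 times as much at day 2, where the whole lists differed 5.21 times. Of the 12 day 2 peaks, 2 had a day 5 peak (16.7%, Wilson interval 4.70 to 44.8), where 30.4% of the whole day 2 list had one. The interval takes the 12 peaks as independent, though some lie less than 1 kb apart, and it includes that background. A difference from the whole list was not tested.

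The strongest Ppargc1b site was also the strongest of the 3 windows at both days. It lay at 61554016 to 61555043 on chromosome 18, was 1028 bp wide and had a score of 696, place 652 of the day 2 list and above 98.5% of it. At day 5 it held a peak of 401 bp at 61554101 to 61554501 (score 175, place 1320, above 92.4% of the list) and a peak of 242 bp at 61554511 to 61554752 (score 62.8, above 34.9%). The day 5 peaks were 9 bp apart and both lay wholly within the day 2 peak. The other shared site, at 61559740 to 61560798, was 1059 bp wide with a score of 186 (above 74.5%) and held a day 5 peak of 230 bp at 61560276 to 61560505 (score 54.7, above 17.5%). At that site the day 5 peak differed from the day 2 peak by -57.0 percentile points, a shift above that of 13.0% of all overlapping pairs. The median shift over all pairs was -16.6 points. At the strongest site the shifts were -6.09 and -63.7 points, above those of 64.8% and 9.04% of pairs. The pairs were not matched by day 2 rank.

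A strong day 2 peak of Ppargc1b had no counterpart at day 5. It lay at 61520649 to 61521553, was 905 bp wide and had a score of 386, place 3203 and above 92.7% of the day 2 list. Among the day 2 peaks of its score decile, the highest, 85.9% overlapped a day 5 peak. It was flanked by weaker peaks at 61520222 to 61520614 (score 76.8), 34 bp away, and at 61521659 to 61522065 (score 57.0), 105 bp away, also without a day 5 peak. The 3 together spanned 1844 bp. The other 7 unmatched day 2 peaks had scores from 53.3 to 184, and the highest of them, at 61543868 to 61544874 (1007 bp, above 74.1% of the list), fell in a decile of which 44.8% had a day 5 peak. The remaining 6 stood in the lower part of the list, at or below percentile 49.4. The day 5 list had 1 peak without a partner here, at 61559225 to 61559443 (219 bp, score 54.5), which fell between the day 2 peaks at 61558346 to 61558797 and 61559740 to 61560798.

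Day 2 peaks were strung along the Ppargc1b window, and the few day 5 peaks were found toward its upper end. The 12 day 2 peaks spanned 84.1 kb, with gaps from 34 bp to 18.2 kb and a median gap of 7.50 kb. The midpoints of the 4 day 5 peaks, which merged into 2 when less than 1 kb apart, were 24.6 to 30.7 kb below the upper end of the window. Day 2 peaks were also found there, with 5 of the 12, the strongest among them, in the last 50 kb. Beyond the peaks, no day 2 peak followed for 75.2 kb below and 81.0 kb above, and no day 5 peak for 179 kb and 126 kb. Such gaps were common: 21.8% and 20.3% of day 2 peaks, and 25.8% and 35.2% of day 5 peaks, bordered a longer one. The region around held many peaks, as 250 kb to each side of the window added 28 day 2 and 7 day 5 peaks. RefSeq places the microRNA gene Mir378a and the transcripts Gm46627 and Gm52354 over Ppargc1b, and Pde6a and Arhgef37 as its coding neighbours, so a peak in the window need not belong to the coactivator itself.

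**Figure D1:**
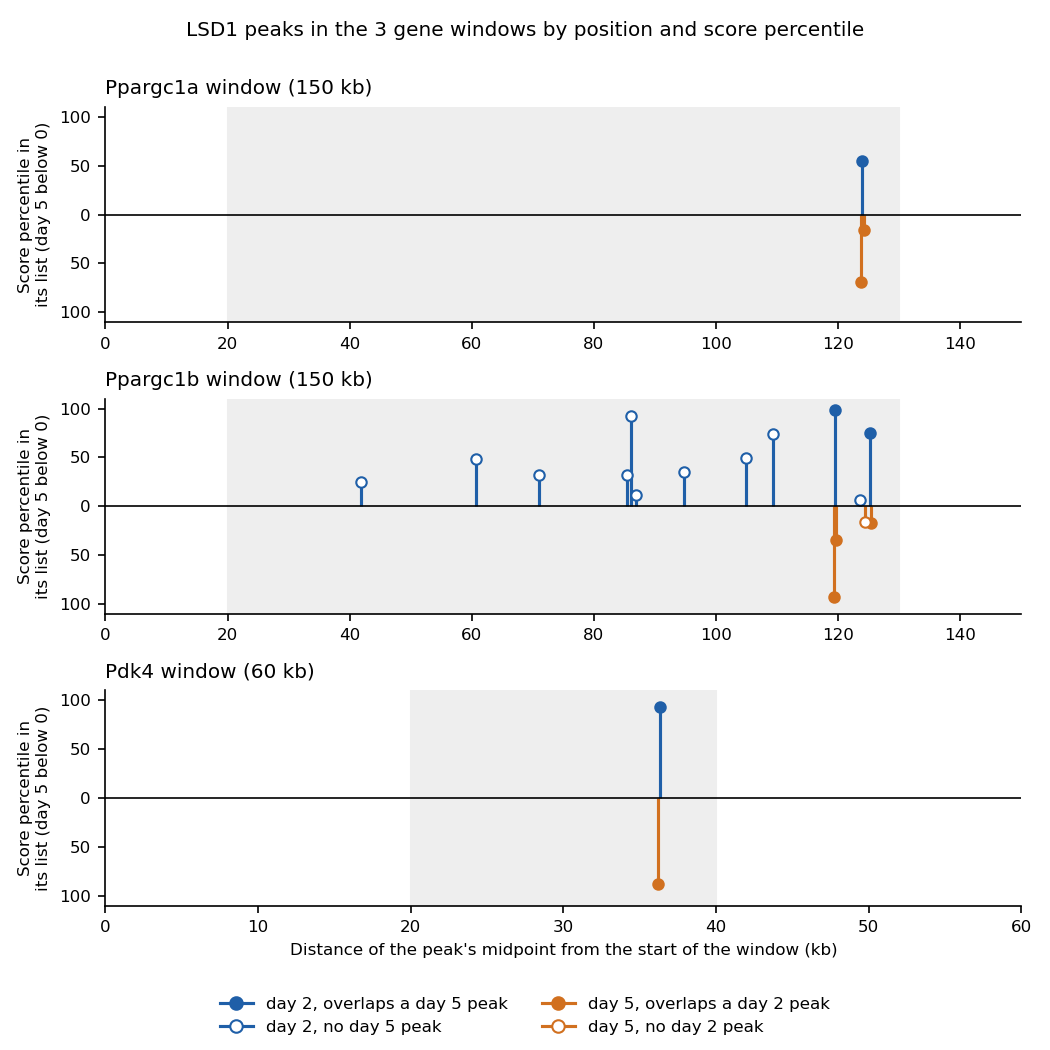
Position and strength of every LSD1 peak in the 3 windows, with the distance of the midpoint from the window's start in kb on the x axis and the score percentile within its own list on the y axis, day 2 upward and day 5 downward. Filled points overlap a peak of the other day, open points do not, and the grey band leaves out 20 kb at each end; all 21 peaks lie in the band, and the day 5 peaks lie toward its upper end.

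The kinase gene Pdk4 carried a single strong LSD1 site at both days. At day 2 the peak lay at 5445737 to 5446920 on chromosome 6, was 1184 bp wide (wider than 87.0% of the list) and had a score of 404, place 2906 and above 93.4%. At day 5 a peak of 494 bp at 5445951 to 5446444 was contained in it, with a score of 144, place 2068 and above 88.1% of that list. The day 2 peak was 2.40 times as wide as the day 5 peak, close to the median ratio of 2.59 over all pairs. The place in the list moved by -5.25 percentile points, a shift that exceeded those of 66.3% of pairs, which were not matched by day 2 rank. In its decile of the day 2 list 85.9% of peaks had a day 5 peak, so the presence of the site at both days was that of most peaks of its score.

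The peaks nearest to the Pdk4 site were weaker and were not shared. At day 2 the next peak below, 52.4 kb away, was at 5392501 to 5393334 (score 91.7), and the next above, 127 kb away, at 5574182 to 5574684 (score 60.5). At day 5 the next peaks were 66.0 kb below, at 5379568 to 5379979 (score 54.0), and 57.2 kb above, at 5503632 to 5504059 (score 81.6). None of these 4 peaks overlapped a peak of the other day. Over the whole lists, 30.4% of day 2 peaks and 86.1% of day 5 peaks did. The coding neighbours of Pdk4 in RefSeq are Asb4 and Dync1i1, and Dync1i1 is the one at higher coordinates.

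All 21 peaks lay at least 20 kb inside the ends of their windows. The midpoints of the 4 day 2 peaks with a day 5 partner were 26.1 kb (Ppargc1a), 30.5 and 24.7 kb (Ppargc1b) and 23.7 kb (Pdk4) below the upper end. Ppargc1a and Pdk4 are on the minus strand in RefSeq, so the upper end of their windows is the side on which transcription starts. Which exon, intron or start site of mm9 the peaks cover was not analysed here, as no gene annotation of that build was used.

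**Figure D2:**
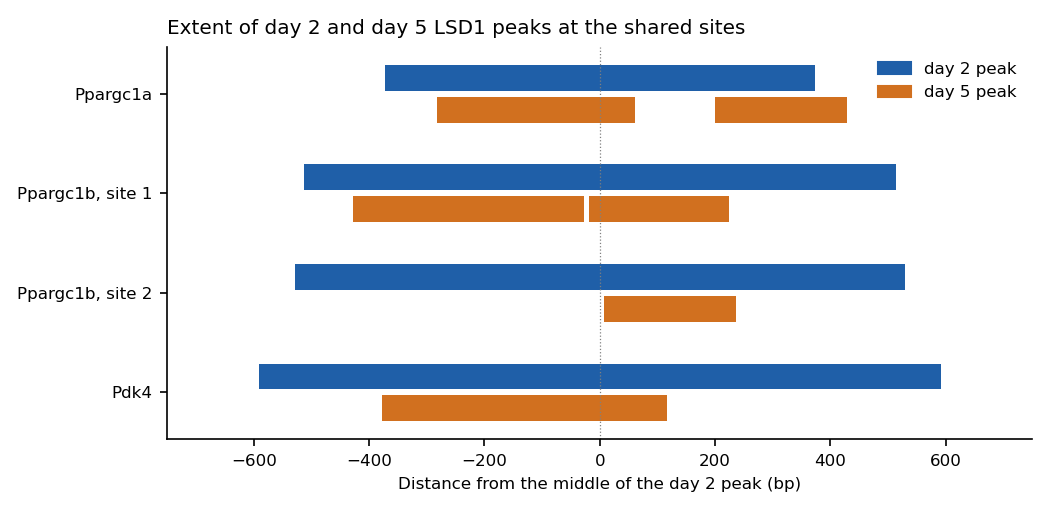
Extent of the LSD1 peaks at the 4 sites found at both days, in bp from the middle of the day 2 peak; bars are the deposited peak intervals, day 2 above day 5. Each day 5 peak is narrower than the day 2 peak, a pair of day 5 peaks appears at Ppargc1a and at the stronger Ppargc1b site (site 1), and the right-hand Ppargc1a peak reaches past the day 2 peak.

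Pooled over the 3 windows and by 1 bp overlap, the share of peaks found at both days was close to that of the lists as a whole. The single windows differed: 2 of 12 day 2 peaks were shared at Ppargc1b, and 1 of 1 at both Ppargc1a and Pdk4. When 50% of each peak had to be covered, 0% of window peaks were shared at either day, against 9.65% (day 2) and 24.4% (day 5) of the lists. Of the 14 day 2 peaks, 4 (28.6%, 11.7 to 54.6) had a day 5 peak, against 30.4% of all day 2 peaks. Of the 7 day 5 peaks, 6 (85.7%, 48.7 to 97.4) had a day 2 peak, against 86.1% of all day 5 peaks. The median day 2 window peak was above 48.7% of its list by score and 627 bp wide, where the list median was 663 bp. The median day 5 window peak was above 34.9% of its list and 242 bp wide, where the list median was 331 bp. The interval of that score percentile, 16.0 to 92.4, was the full range of the 7 peaks. With peaks less than 1 kb apart merged, the median was 76.7 over 4 merged peaks, ranked anew within the merged list. With 14 peaks, the interval of the median day 2 width was 452 to 1028 bp and included the list median. With 7 peaks, the day 5 interval, 219 to 494 bp, was the full range of the peaks, so its holding the list median shows little. All these intervals take the peaks as independent, though some lie less than 1 kb apart. By score, 3 of the 14 day 2 peaks stood in the highest decile of the list, 2 of them at Ppargc1b and 1 at Pdk4.

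**Figure D3:**
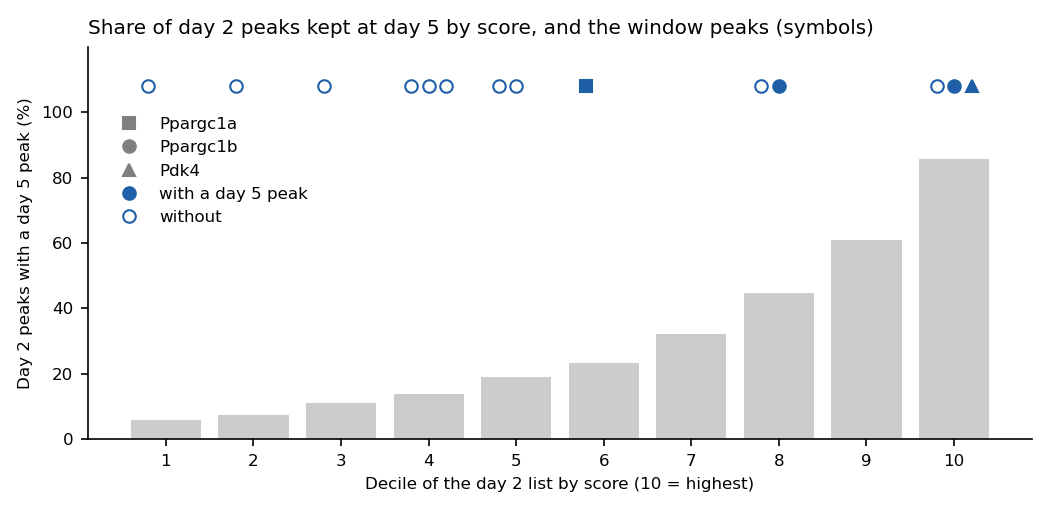
Bars give the percentage of all day 2 peaks that overlap a day 5 peak in each decile of the day 2 list by score, and symbols above them place the 14 day 2 window peaks in their decile, filled where a day 5 peak overlaps. The open circle in the highest decile is the Ppargc1b peak with a score of 386, in a decile where 85.9% of peaks had a day 5 peak.

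In number of peaks at day 2, Ppargc1b stood high among stretches of its length, less so when weak peaks were left out. The autosomes were cut into adjoining stretches as long as each window, and peaks were counted in each. At least 12 day 2 peaks, the Ppargc1b number, were found in 4.44% of 16447 stretches of 150 kb, whose median was 1. At least 4 day 5 peaks were found in 9.66% of 16425 such stretches, whose median was 0. With peaks above their own list's median score only, Ppargc1b had 4 day 2 peaks and 1 day 5 peak, numbers reached by 13.1% and 28.2% of stretches. With peaks less than 1 kb apart merged it had 9 and 2, reached by 6.28% and 22.6%. For Ppargc1a, at least 1 day 2 peak was found in 54.2% of these stretches and at least 2 day 5 peaks in 24.6%. For Pdk4, at least 1 day 2 peak was found in 39.3% of 41136 stretches of 60 kb and at least 1 day 5 peak in 23.3% of 41079. The stretches include those without a gene, and the background of gene loci alone was not computed.

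**Figure D4:**
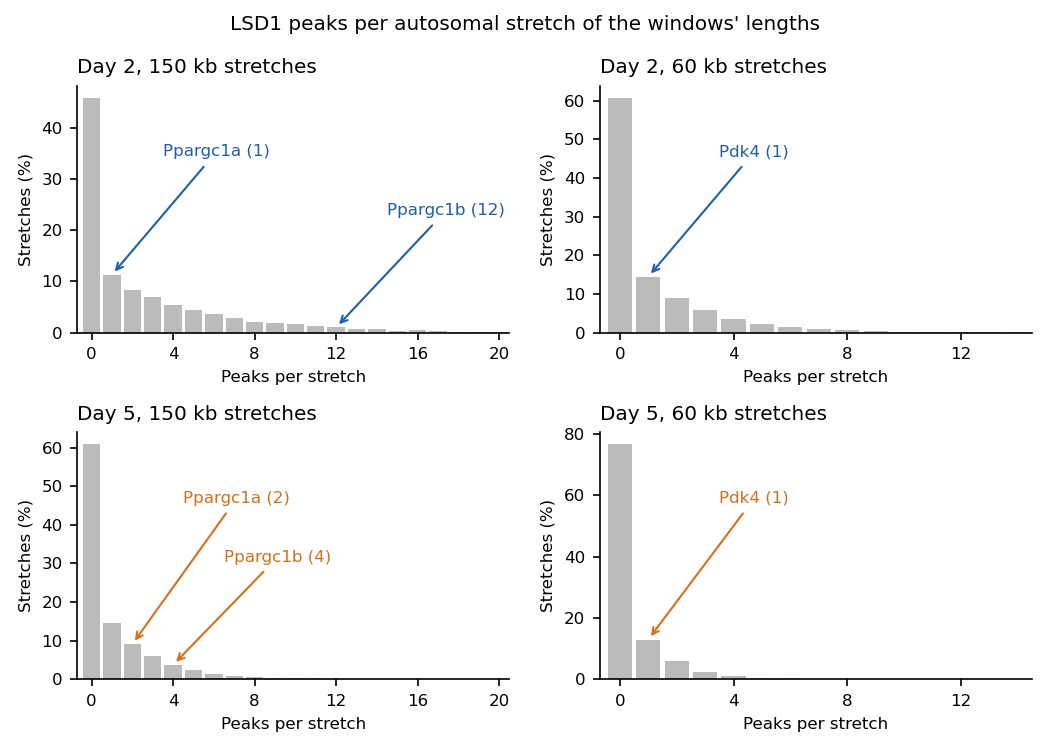
Percentage of autosomal stretches (y axis) with each number of LSD1 peaks (x axis), for stretches of 150 kb (left) and 60 kb (right) at day 2 (top) and day 5 (bottom), with arrows at the numbers in the gene windows. Ppargc1b lies in the upper tail at day 2 with 12 peaks, while Ppargc1a and Pdk4 have 1 each; the x axes end before the few fullest stretches.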

How the data were processed

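LSD1 ChIP-seq and input libraries of C2C12 cells were grouped by sample title, 1 per group. Per the labels' protocols, chromatin was fixed with both formaldehyde and disuccinimidyl glutarate and then sonicated. The authors deposited 1 peak list per LSD1 library, called with MACS in Galaxy per the file headers. Bowtie2, deepTools and mm9 are named in the submitters' processing notes. For the caller's version, cutoff and use of the input, the sources used here give nothing. The score of each peak is deposited as the caller gave it, from 50 upward. Starts, deposited counted from 0, are printed counted from 1. Ranks and percentiles (the share of a list with a lower score) were computed within a list. Peaks overlapping by at least 1 bp were called shared. Shares have Wilson intervals, medians have binomial order-statistic intervals. The genes and windows were chosen with earlier results of these data known. Named peaks were every day 5 peak with its partners, the 3 highest-scoring day 2 peaks and the widest per window, and all peaks where a window had 8 or fewer; the strong unmatched Ppargc1b peak and its neighbours, and the next peaks outside the windows, were singled out after their values were seen. A planned count over 30 pathway genes was not run, because it needs an mm9 annotation. Overlap counting was checked with a random part of the real day 2 peaks, trimmed at both ends and matched back to the list. That checks the code only. Alternatives covered score limit, overlap rule, window size and merging. Tools were SciPy 1.17.1, pandas 2.3.3, NumPy 2.4.6 and Matplotlib 3.10.9 under Python 3.11.15.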

Additional observations from a re-analysis of the deposited data

How the results depend on the processing

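Of 36 alternatives for 8 values over the 3 windows, 27 stayed within the interval of the value (counts within 1.5 times) and 9 moved. With peaks above their own list's median score only, 6 day 2 and 3 day 5 peaks were left, and 100% of the day 5 peaks had a day 2 peak. When 50% of each peak had to be covered, 0% of day 2 and 0% of day 5 window peaks were shared, where that rule gave 9.65% and 24.4% over the whole lists. The day 5 peaks covered a median of 37.9% of the day 2 peak over all pairs. A distance of up to 1 kb gave 100% of day 5 peaks with a day 2 peak. Merging peaks less than 1 kb apart left 4 day 5 peaks, with 100% shared and a median width of 682 bp. For the settings that gave 100%, the share over the whole day 5 list was not computed. Under the main rule that share was 86.1%. The median day 5 score percentile, 34.9, was 76.7 with merging and 76.3 with peaks above the median score. Percentiles under these settings, at both days, were ranked anew within the merged or shortened list. They are not on the scale of the main values, so their lying inside the main intervals, as counted among the 27, shows no stability. Of 24 alternatives for the peak numbers of single genes, 17 were within 1.5 times and 7 moved. Above the median score, Ppargc1b had 4 day 2 peaks and 1 day 5 peak and Ppargc1a 1 day 5 peak, and merging left 2 day 5 peaks at Ppargc1b and 1 at Ppargc1a. Narrowing the windows by 15 kb at both ends could not change any of these values, because every peak lay at least 20 kb inside its window. Those alternatives are counted among the 27 and the 17 above and are no evidence of stability. Widening by 50 kb at both ends added no peak at Ppargc1a, 1 day 2 peak at Ppargc1b, and 1 day 2 and 2 day 5 peaks at Pdk4. No paired analysis was possible because each group has 1 library, and no replicate could be left out. Percentages over 14 and 7 peaks are imprecise, and the depth that limits peak number is unknown.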
